A study of Rattus norvegicus with 138 samples.

Results

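Ankrd1, Ankrd2, Ankrd23 and Csrp3 were followed in rat tibialis anterior (TA) muscle after volumetric muscle loss (VML), the removal of a piece of muscle too large to regrow. They are 4 of the 16181 gene symbols in the expression table and were taken by name. They were chosen by their measured TPM in unrepaired injured muscle against contralateral and control muscle of rats that did not run, so those differences, and contralateral against control, are given here as a description with no test. Tests were kept to injured muscle of grafted or running rats and contrasts between treatments or days in injured muscle. Where unrepaired muscle of rats that did not run is 1 side of a test, those muscles are the ones whose levels chose the genes. Contralateral muscles of grafted rats that did not run are not set apart from those behind the choice either.

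Ankrd1 (CARP), Ankrd2 (ARPP) and Ankrd23 (DARP) form the muscle ankyrin repeat protein family, which binds titin in the I-band of the sarcomere and can also enter the nucleus. Csrp3 encodes muscle LIM protein, a Z-disc protein that also moves to the nucleus. Members of both families are known to be induced by stretch, overload or denervation of muscle, and Ankrd1 is a widely used target gene of the YAP and TEAD transcription factors.

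All animals were Lewis rats, described in the study's methods as inbred males of about 4 months. Control muscles came from 2 rats labelled sham at day 0, both legs of each, which the study describes as unoperated. VML muscles had a full-thickness defect made with a 6 mm biopsy punch in the middle of the TA of one leg, and the TA of the other leg was the contralateral muscle (labelled NoVML). Injured muscle was left without repair or was given an autologous minced muscle graft (MMG), cut from the excised tissue and put back into the defect, and rats either ran (Run) or did not (NoRun). The running protocol was not given in the sources used here. Muscles were taken at 3, 7, 14 or 28 days post injury (DPI). After 13 libraries with fewer than 7000 symbols above 1 TPM (a length-scaled share of the transcripts in a library) were dropped and 9 with conflicting labels were set aside, 114 muscles of 78 rats in 31 groups remained: 4 control, 34 contralateral and 76 injured. The sparsest library kept had 7866 such symbols and the richest one dropped had 5712. Read depth cannot be read from TPM, so no counting interval is given. The libraries kept held between 0.0536% and 16.7% of their TPM in ribosomal RNA symbols. In these whole-muscle samples, fewer cells of a type and less RNA per cell cannot be told apart.

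The stretches upstream of Ankrd2 and Ankrd23 are shown because these were the members found in the promoter table, and they were called in opposite directions in grafted muscle at 3 DPI. Each is the 250 bases before the annotated gene start in RefSeq on rat build GRCr8, read 5′ to 3′ on the gene's strand: chr1:250796169-250796418 on the plus strand for Ankrd2 and chr9:46274511-46274760 on the minus strand for Ankrd23. They are 2 of the 4 genes. Capitals mark E-boxes (CANNTG, the core bound by MyoD-family factors), the TATA box (TATAAA) and the M-CAT core (CATTCC, bound by TEAD factors).
Ankrd2: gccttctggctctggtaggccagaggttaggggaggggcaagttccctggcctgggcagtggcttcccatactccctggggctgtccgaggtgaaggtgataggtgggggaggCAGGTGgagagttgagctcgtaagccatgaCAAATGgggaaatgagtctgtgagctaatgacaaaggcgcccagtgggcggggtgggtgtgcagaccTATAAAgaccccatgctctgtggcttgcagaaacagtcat
Ankrd23: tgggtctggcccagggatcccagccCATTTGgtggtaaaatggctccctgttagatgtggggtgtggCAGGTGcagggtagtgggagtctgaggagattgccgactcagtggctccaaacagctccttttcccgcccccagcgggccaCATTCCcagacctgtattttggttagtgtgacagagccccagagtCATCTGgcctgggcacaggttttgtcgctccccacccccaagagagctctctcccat
Searched on both strands, the Ankrd2 stretch held the TATA box letters starting 40 bases before the gene start and 2 E-boxes, and CATTCC did not occur in it. The Ankrd23 stretch held CATTCC once and 3 E-boxes, without TATAAA. No match overlapped another. Of 33465 promoters of this length, 12.06% held CATTCC, 12.93% held TATAAA and 65.55% held an E-box. Neither stretch held a CArG box or a MEF2 site, which occurred in 1.5% and 0.52% of the promoters. A match is a description of letters and not evidence of binding.

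In control muscle the members differed widely in level. TPM is scaled by transcript length, so levels can be set against each other between genes. Ankrd23 was the highest, with values of 743, 1693, 2138 and 2265 TPM in the 4 control muscles. Csrp3 was at 28.1, 39.4, 54.0 and 66.2 TPM, Ankrd2 at 7.84, 12.8, 15.03 and 17.9 TPM, and Ankrd1 at 4.34, 4.64, 5.35 and 6.64 TPM. The lowest control value of Ankrd2, Ankrd23 and Csrp3 came from the same muscle, the right TA of one rat, whereas Ankrd1 was not lowest there.

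Unrepaired injured muscle of rats that did not run gave the values behind the choice of these genes. Ankrd1 was at 856, 979 and 1172 TPM in the 3 muscles at 3 DPI. At 7 DPI its 8 values ran from 598 to 1960 TPM around a median of 1391. It was at 380, 423, 567 and 803 TPM at 14 DPI and at 353, 403, 417 and 1062 TPM at 28 DPI. Every one of these values lay above every control and contralateral value of Ankrd1, the highest of which was 48.0 TPM. Relative to control, the mean TPM ratio was 191, 273, 103.6 and 106.6 at 3, 7, 14 and 28 DPI. Relative to contralateral muscle of unrepaired rats it was 60.9, 159, 120.96 and 74.9.

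Csrp3 in the same muscles was at 563, 639 and 648 TPM at 3 DPI and ranged from 253 to 777 TPM (median 573, n = 8) at 7 DPI. It was at 258, 273, 345 and 404 TPM at 14 DPI and at 161, 245, 292 and 471 TPM at 28 DPI, above all 4 control muscles on each day. The ratio of means to control was 13.2, 11.3, 6.82 and 6.23 on the successive days, and to contralateral muscle, which lay below every injured value on the same day, 6.89, 8.80, 9.03 and 5.32.

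Ankrd2 was at 76.8, 85.1 and 106.1 TPM at 3 DPI, a mean 6.68 times that of control and 2.55 times that of contralateral muscle (24.1 and 45.8 TPM). From 7 DPI its values overlapped with control and contralateral ones: they ran from 12.3 to 78.7 TPM (median 37, n = 8) at 7 DPI, and were 8.48, 14.99, 22.6 and 32.4 TPM at 14 DPI and 3.84, 27.8, 28.9 and 29.8 TPM at 28 DPI. Ankrd23 was at 723, 962 and 1205 TPM at 3 DPI, between 678 and 1925 TPM (median 1388, n = 8) at 7 DPI, at 1555, 1618, 1795 and 1924 TPM at 14 DPI, and at 1042, 1194, 1439 and 1753 TPM at 28 DPI. Its injured and control ranges overlapped on each day. At 3 DPI the overlap rested on the control value of 743 TPM, from the sparsest library kept (7866 symbols above 1 TPM). The other control muscles held 1693 to 2265 TPM. Against contralateral muscle, its injured values lay wholly below at 3 DPI (2156 and 2619 TPM, a log2 difference of -1.33) and 28 DPI (1920 and 2247 TPM, -0.64). They overlapped at 7 DPI (contralateral 1067, 1182, 2363 and 2610 TPM) and 14 DPI (1578 and 2157 TPM).

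**Figure D1:**
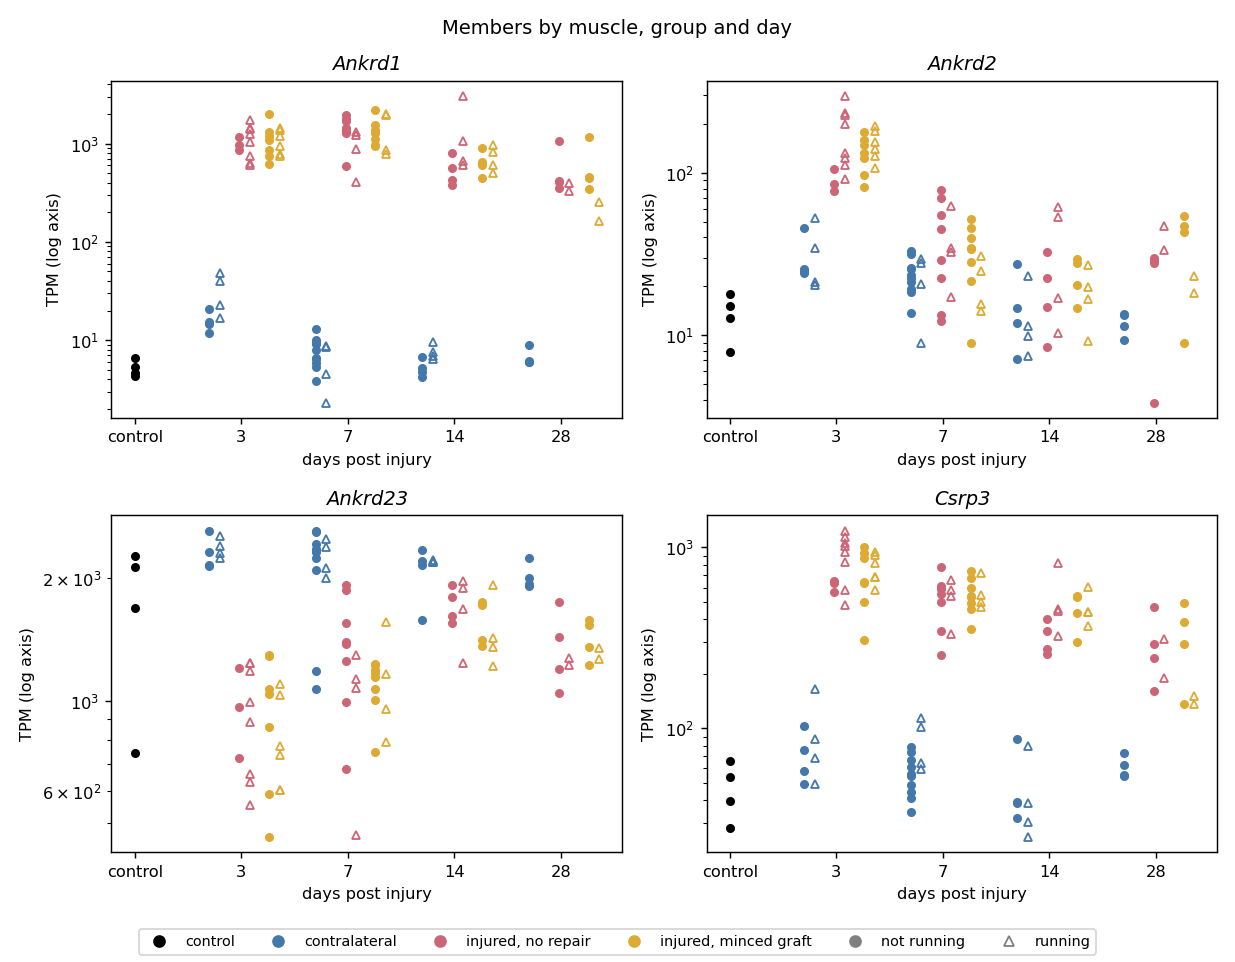
TPM of each member (log axis) in every muscle by days post injury, with control muscle at the left, circles for rats that did not run and open triangles for rats that ran. Ankrd1 and Ankrd23 give the clearest contrast: injured muscles hold 161 to 3026 TPM of Ankrd1 against 2.32 to 48.0 TPM in contralateral ones, while Ankrd23 lies lower in injured muscle at 3 DPI.

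Grafted rats that did not run were used to ask whether the same genes stood apart in animals other than the unrepaired ones. Only their injured side is separate from the choice of genes, since their contralateral muscles are not set apart from those behind it. All 4 members passed the test at 3 DPI, 3 higher and 1 lower in injured than in contralateral muscle, where 37.2% of the 11328 genes tested were called higher and 6.8% lower. A gene was called where the limma test, fitted to log2(TPM + 1) in one model of all groups, gave a Benjamini-Hochberg adjusted p below 0.05 and the log2 difference exceeded 1 in size. At 7 DPI Ankrd1 and Csrp3 were called higher (42.9% of all genes were) and Ankrd23 was called lower (3.35%). At 14 and 28 DPI 2 members were higher, against 25.6% and 18.8%.

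Ankrd1 rose most. In grafted injured muscle it ranged from 627 to 1995 TPM at 3 DPI (median 1084, n = 7) and from 954.5 to 2199 TPM at 7 DPI (median 1319, n = 8), and it was 447, 606, 653 and 897 TPM at 14 DPI and 347, 444, 453 and 1163 TPM at 28 DPI. The contralateral muscles of grafted rats held 14.6 and 15.4 TPM at 3 DPI, 5.39 to 9.60 TPM at 7 DPI (median 6.45, n = 6), 5.26 and 6.70 TPM at 14 DPI and 5.96 and 6.14 TPM at 28 DPI. Injured and contralateral values did not overlap on any day. The log2 difference was 6.03 (SE 0.43, limma adjusted p = 1.833e-22) at 3 DPI, 7.38 (SE 0.29, adjusted p = 2.823e-39) at 7 DPI, 6.51 (SE 0.47, adjusted p = 1.236e-20) at 14 DPI and 6.24 (SE 0.47, adjusted p = 1.051e-19) at 28 DPI. Among the 11328 genes ordered by log2 difference, Ankrd1 stood at place 10, 4, 6 and 2 on the successive days.

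Csrp3 was called higher on all 4 days. Its grafted injured values were 309 to 1002 TPM at 3 DPI (median 644, n = 7) and 356 to 740 TPM at 7 DPI (median 535, n = 8), then 298, 434, 532 and 542 TPM at 14 DPI and 136.97, 292, 388 and 494 TPM at 28 DPI. Contralateral muscle held 34.6 to 87.1 TPM over the same days, below every injured value. The log2 difference was 3.59 (SE 0.37, limma adjusted p = 5.472e-15), 3.36 (SE 0.25, adjusted p = 1.318e-22), 2.89 (SE 0.40, adjusted p = 1.489e-09) and 2.12 (SE 0.40, adjusted p = 5.142e-06) from 3 to 28 DPI.

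Ankrd2 was called higher at 3 DPI alone. It was then 81.9 to 178 TPM in grafted injured muscle (median 132.5, n = 7) and 24.8 and 25.5 TPM in contralateral muscle, a log2 difference of 2.30 (SE 0.55, limma adjusted p = 1.154e-04). At 7 DPI the injured values, 9.0 to 52.0 TPM (median 34.1, n = 8), spanned the contralateral range of 13.7 to 31.5 TPM. The log2 differences were 0.50 at 7 DPI and 0.14 at 14 DPI, and they turned to -0.42 and -0.55 when TPM was rescaled by median-ratio size factors, with no call on either scale. At 28 DPI the log2 difference was 1.28 (95% interval 0.10 to 2.46, limma adjusted p = 0.05358). It was called without the grafted injured muscle of 8.90 TPM (log2 difference 1.86, adjusted p = 0.005397). With the rat number range as a covariate it was also called (1.28, adjusted p = 0.04688). All muscles of this comparison lie in the same rat number range, so that covariate cannot adjust the difference and left it unchanged.

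Ankrd23, the most abundant member in uninjured muscle, fell. Grafted injured muscle held 462 to 1295 TPM at 3 DPI (median 1041, n = 7) and 747 to 1228 TPM at 7 DPI (median 1157, n = 8), against 2141 and 2320 TPM and 2102 to 2601 TPM in contralateral muscle. The log2 difference was -1.32 (SE 0.31, limma adjusted p = 8.157e-05) at 3 DPI and -1.10 (SE 0.21, adjusted p = 1.263e-06) at 7 DPI. At 14 DPI (1365, 1412, 1718 and 1750 TPM) and 28 DPI (1225, 1355, 1540 and 1585 TPM) the injured values still lay below the contralateral ones of 1936 to 2344 TPM, with log2 differences of -0.55 and -0.47 that were not called. With size factors these 2 differences were -1.26 (limma adjusted p = 4.658e-04) and -1.07 (adjusted p = 0.003491), both called lower.

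The scale matters here because the median log2 difference of all tested genes was itself 0.66, 0.85, 0.58 and 0.49 in grafted rats from 3 to 28 DPI, and between 0.02 and 0.06 after size factors. Ankrd1 and Csrp3 lay above the median gene on all 4 days and Ankrd23 below it on all 4. Ankrd2 lay above it at 3 and 28 DPI and below it at 7 and 14 DPI.

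Running rats gave a further set of muscles. Unrepaired running rats had all 4 members called at 3 DPI, 3 higher (33.7% of all genes were called higher) and 1 lower (6.48%). At 7 DPI Ankrd1 and Csrp3 were called higher (39.9%) and Ankrd23 lower (3.2%), and at 14 DPI 3 members were called higher (25.7%). In grafted running rats the 3 DPI muscles had 3 members called higher (37.9%), with Ankrd23 called lower (6.96%). Ankrd1 and Csrp3 were again higher (40%) and Ankrd23 lower (4.28%) at 7 DPI, and 2 members were higher (23.6%) at 14 DPI. No contralateral muscle of running rats could be mapped at 28 DPI. Ankrd2 in unrepaired running rats at 7 DPI was at 0.97 (limma adjusted p = 0.1253), and it was called without the contralateral muscle of rat 003 (1.77, adjusted p = 0.03028).

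In these running rats the log2 difference of Ankrd1 ran from 4.92 to 7.44 and that of Csrp3 from 2.67 to 4.08, each called on each day in both treatments. Ankrd2 was called at 3 DPI in both, at 2.28 (limma adjusted p = 1.112e-04) without repair and 2.41 (adjusted p = 7.537e-05) with graft. Its call at 14 DPI in unrepaired running rats (log2 difference 1.5, SE 0.59, limma adjusted p = 0.0205) rested on injured values of 10.3, 16.9, 53.6 and 61.5 TPM that overlapped the contralateral 7.42 and 11.3 TPM, and it was lost with size factors (0.83, adjusted p = 0.216), with all libraries kept or in a fit of these groups alone at the same 1.5 (adjusted p = 0.1197 and 0.07006), and without any one of 3 muscles, the injured ones of 61.5 and 53.6 TPM (1.13 and 1.20) and the contralateral one of 7.42 TPM (1.23). Ankrd23 was called lower at 3 DPI, by a log2 difference of -1.39 without repair and -1.62 with graft. At 7 DPI it was at -1.31 (-0.98 without the injured muscle of rat 031) without repair, where leaving that muscle out ended the call, and at -1.02 with graft. The call with graft was lost without the injured muscle of rat 007 (-0.96) or 028 (-0.87) or the contralateral one of rat 008 (-0.89). With all 13 sparse libraries kept, neither 7 DPI difference of Ankrd23 was called: it stayed at -1.31 without repair (limma adjusted p = 0.06787) and was -0.78 with graft (adjusted p = 0.2702). At 14 DPI Ankrd23 was at -0.39 without repair and -0.60 with graft, not called, and with size factors at -1.12 (limma adjusted p = 0.001925) and -1.25 (adjusted p = 5.321e-04), both called lower.

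**Figure D2:**
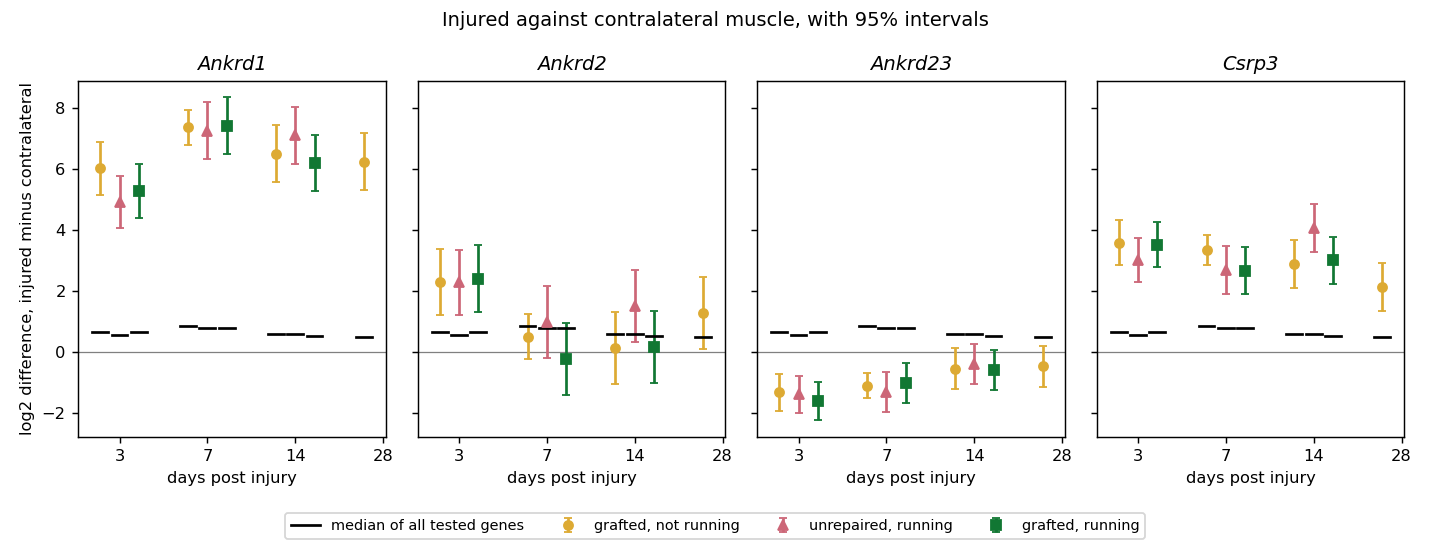
Log2 difference of each member, injured minus contralateral, by days post injury in grafted rats that did not run, unrepaired running rats and grafted running rats. Bars are 95% intervals of the limma fit and black dashes mark the median of all tested genes, which was 0.85 in grafted rats at 7 DPI where Ankrd1 was at 7.38 and Ankrd23 at -1.10.

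Each member was also described relative to the myofibre markers Acta1, Ckm, Mb, Pygm and Eno3, 5 of 7 listed genes with values. Their summed level was 11524 to 31701 TPM in grafted injured muscle at 3 DPI and 24663 to 51496 TPM at 7 DPI, against 91848 to 99326 and 89275 to 108672 TPM in contralateral muscle, a log2 difference of -2.15 and -1.47. It was -0.41 and -0.43 at 14 and 28 DPI. No marker of the 5 was at 0 in every muscle of a group. Over this sum, a scale chosen after the marker levels were seen, the log2 difference of Ankrd23 in grafted rats was 0.82, 0.37, -0.14 and -0.04 from 3 to 28 DPI. The ratio is not a level per fibre, and fast and regenerating fibre genes also changed in these muscles at 7 DPI. At 7 DPI the ratio was higher in injured muscle (SD 0.20, n = 8) than in contralateral muscle (SD 0.18, n = 6) by an exact two-sided permutation test (p = 0.00666, the adjusted p over the 4 members being the same). Ankrd1, Ankrd2 and Csrp3 were at 9.05, 1.98 and 4.85 on this scale at 7 DPI (exact two-sided permutation p = 6.66e-04, 0.001332 and 6.66e-04; the first is the smallest the 3003 splits can give). Each of the 6 contralateral muscles was the other leg of a rat with an injured muscle here. The permutation took all muscles as independent, so its p-values ignore this pairing. The other days were not tested on this scale. In running rats at 7 DPI the value of Ankrd23 over the markers was -0.060 without repair and 0.49 with graft.

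**Figure D3:**
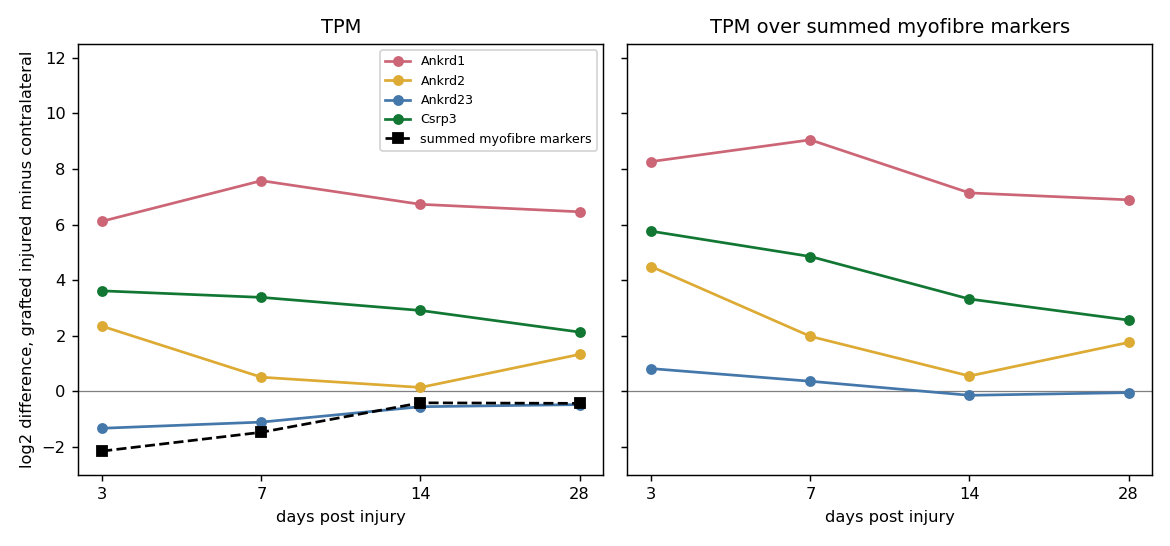
Log2 difference between grafted injured and contralateral muscle, not running, by days post injury, as TPM (left) and as TPM over the summed myofibre markers (right), as differences of mean log2 values without pseudocount. At 3 DPI Ankrd23 lies at -1.33 beside -2.15 for the markers on the left, and at 0.82 on the right.

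Markers of other cell types rose in the same muscles. In grafted injured muscle at 7 DPI all 8 leukocyte markers, all 6 fibroblast markers, 6 of 7 endothelial markers and 4 of 6 smooth muscle markers were called higher than in contralateral muscle, where 42.9% of all genes were, and 1 smooth muscle marker, Lmod1, was lower. The summed leukocyte markers were at 323 to 639 TPM against 17.4 to 27.1 TPM, and the summed fibroblast markers at 9050 to 16301 TPM against 438 to 752 TPM. The endothelial sum was 236 to 336 TPM against 99.1 to 130.6 TPM and the smooth muscle sum 626 to 1135 TPM against 99.9 to 176 TPM. No marker in these lists was at 0 in every muscle of a group. Their part in the levels of the 4 members was not tested.

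Injured muscle brought Ankrd1 to the level of Ankrd23. In none of the 38 control and contralateral muscles did Ankrd1 exceed Ankrd23. In injured muscle it did so in 20 of 24 muscles at 3 DPI, 15 of 24 at 7 DPI, 1 of 16 at 14 DPI and 0 of 12 at 28 DPI. The one muscle at 14 DPI was the unrepaired running one with 3026 TPM of Ankrd1 and 1893 TPM of Ankrd23.

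**Figure D4:**
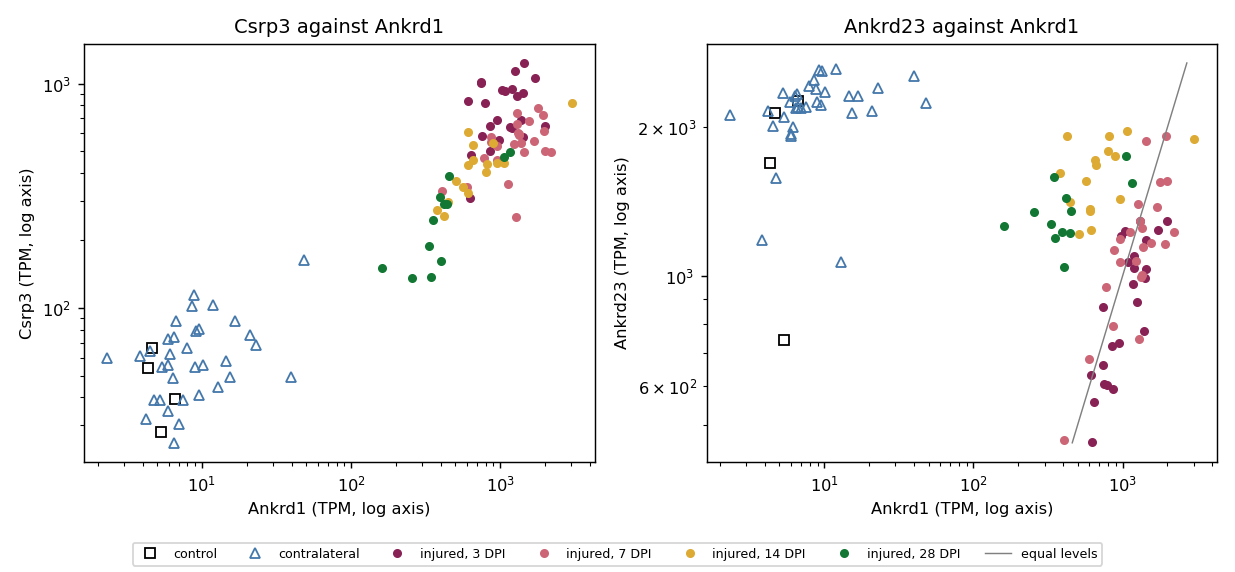
Csrp3 (left) and Ankrd23 (right) against Ankrd1 in all 114 muscles, in TPM on log axes, coloured by group and day, with a grey line of equal levels at the right. Injured muscles lie apart from control and contralateral ones in Ankrd1, while in Csrp3 the lowest injured value (135.7 TPM) lies under the highest contralateral one (164 TPM), and 36 of 76 injured muscles lie right of the line, where Ankrd1 exceeds Ankrd23.

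The time course was followed in grafted injured muscle, with no test of 1 member against another. From 3 to 7 DPI Ankrd2 fell by 2.06 on the log2 scale (SE 0.35, limma adjusted p = 7.485e-07), and its 7 DPI values all lay below those at 3 DPI. It was the one member called, where 4.29% of all genes were called lower. The other 3 members were at log2 differences of 0.32 (Ankrd1), 0.29 (Ankrd23) and -0.29 (Csrp3) over this interval. From 7 to 14 DPI Ankrd1 was the one member called lower (9.77% of all genes), at a log2 difference of -1.05 (SE 0.33, limma adjusted p = 0.004045). That call was lost with size factors (-0.66), with all libraries kept at the same difference (-1.05, adjusted p = 0.05205) and without the 14 DPI muscle of 447 TPM (-0.88). The median of all genes fell by 0.37 over this interval. Ankrd23 was at 0.52 (limma adjusted p = 0.04697), under the fold required. From 14 to 28 DPI no member was called (1.36% of all genes in either direction), with values between -0.57 (Csrp3) and 0.49 (Ankrd2). All these 28 DPI muscles came from rats numbered up to 088, and all these 14 DPI ones from rats numbered 091 or above. Day and rat number range therefore cannot be told apart over this interval. With the range as a covariate, Ankrd1 and Ankrd23 changed sign, to 0.12 and 0.30.

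In a moderated F-test of equal injured minus contralateral differences over the 4 days of grafted rats, 61.9% of all genes passed, and so did Ankrd2 (limma adjusted p = 0.043) and Csrp3 (adjusted p = 0.04941). Neither passed with a pseudocount of 0.1 TPM, with no filter on low genes or with all libraries kept, and leaving out 1 muscle gave between 0 and 3 members that passed. The test was not passed by Ankrd1 (adjusted p = 0.05875) or Ankrd23 (adjusted p = 0.1957), and 2 of 4 is no more than the share of all genes. The difference at 28 DPI minus that at 3 DPI was -1.47 (SE 0.54) for Csrp3 and -1.02 (SE 0.81) for Ankrd2, whose lowest point was at 14 DPI (-2.16 against 3 DPI).

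Grafted muscle was set against the unrepaired muscle whose levels chose the genes, so a missed call here is no evidence that they were alike. In rats that did not run, 0 of 4 members were called between grafted and unrepaired injured muscle at 3, 7, 14 or 28 DPI, where 0.00883%, 0.0883%, 0.0265% and 0% of all genes were called. At 28 DPI limma called no gene, and 1.24% had an unadjusted p below 0.05. Averages over the 4 days are a summary added after the group levels were seen and given with no test. The averaged log2 difference was 0.10 for Ankrd1, 0.37 for Ankrd2, -0.10 for Ankrd23 and 0.20 for Csrp3. With size factors these were -0.031, 0.25, -0.23 and 0.071. The Ankrd2 average includes one unrepaired 28 DPI muscle of 3.84 TPM beside 27.8 to 29.8 TPM in its group, and was not refitted without it.

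Running was compared within each treatment, and in unrepaired muscle the side that did not run again holds the values behind the choice. Among unrepaired injured muscles 0 of 4 members were called at 3, 7, 14 or 28 DPI, where 0.0441%, 0%, 0.0177% and 0.0177% of all genes were called. Among grafted ones 0 of 4 were called on any day, and no gene was called at all (0% at 3, 7, 14 and 28 DPI), with 5.24%, 1.83%, 0.627% and 8.4% of genes at an unadjusted p below 0.05. At 7 DPI in unrepaired muscle 21.3% of genes had such a p and limma called none.

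Single running values stood out without passing the adjusted test. Ankrd1 in unrepaired muscle at 14 DPI was at 610, 659, 1067 and 3026 TPM in running rats and 380 to 803 TPM in the others, a log2 difference of 1.04 (SE 0.38, limma adjusted p = 0.3855), and of 0.54 without the muscle of 3026 TPM. In grafted muscle at 28 DPI it was at 161 and 255 TPM in 2 running rats and 347 to 1163 TPM in the others, a log2 difference of -1.39 (SE 0.47, limma unadjusted p = 0.003868, adjusted p = 0.3088). Csrp3 in these same grafted muscles was at 135.7 and 151 TPM against 136.97 to 494 TPM, with overlapping ranges and a log2 difference of -1.04 (SE 0.40, limma adjusted p = 0.4009). Libraries of running rats at 28 DPI that are labelled VML but were set aside for conflicting labels held 239, 372, 445 and 652 TPM of Ankrd1. These were not split by repair.

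Averaged over 4 days, again a summary added after the group levels were seen and given with no test, the log2 difference of Ankrd2 in unrepaired muscle was 0.65. Its largest single day was 28 DPI, with 33.6 and 46.8 TPM in 2 running muscles. The others then held 3.84, 27.8, 28.9 and 29.8 TPM, and the average was not refitted without the muscle of 3.84 TPM. The Ankrd2 values of unrepaired muscle at 3 DPI were 92.0 to 296 TPM in running rats (median 166, n = 8) and 76.8 to 106.1 TPM in the others. The 4 running muscles of 201 to 296 TPM came from rats numbered 091 or above, a range with no unrepaired muscle of a rat that did not run at 3 DPI, and in these 4 running and rat number range cannot be told apart. Among rats numbered up to 088, 4 running muscles held 92.0 to 131.8 TPM and the 3 others 76.8 to 106.1 TPM, a log2 difference of 0.36. In grafted muscle the averaged difference of Ankrd2 was -0.32. The averaged differences of Ankrd1, Ankrd23 and Csrp3 were between -0.18 and 0.24 in unrepaired muscle and between -0.32 and -0.10 in grafted muscle.

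**Figure D5:**
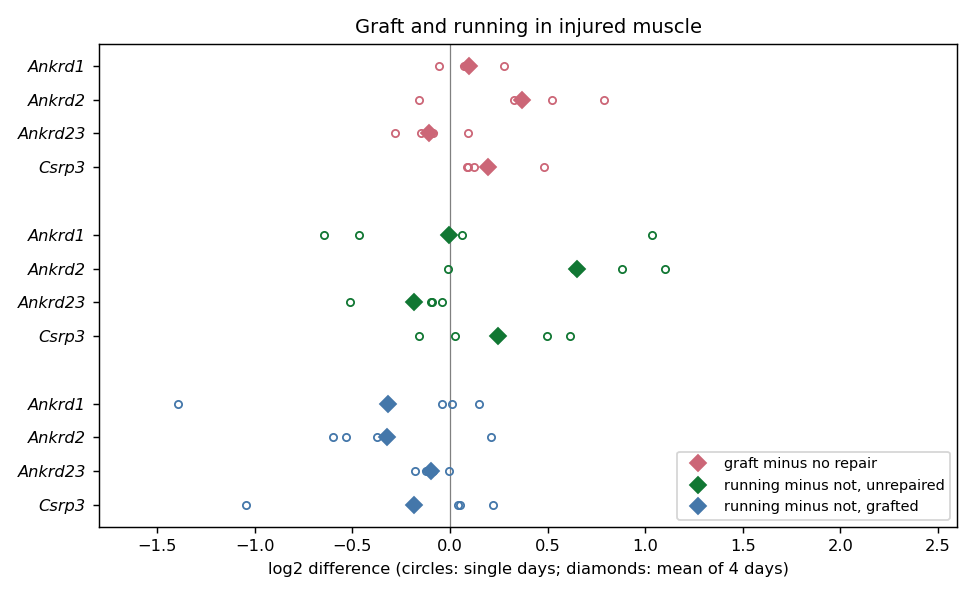
Log2 difference of each member in injured muscle for graft minus no repair in rats that did not run and for running minus not running without and with graft, with open circles for single days and filled diamonds for the mean of the 4 days, a summary added after the group levels were seen. Single days run from -1.39 (Ankrd1, running in grafted muscle at 28 DPI) to 1.10 (Ankrd2, running in unrepaired muscle at 28 DPI), and the means from -0.32 to 0.65. Unrepaired muscle at 28 DPI without running holds one Ankrd2 value of 3.84 TPM beside 27.8 to 29.8 TPM.

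Contralateral muscle was followed by day as a description with no test. Against control, contralateral muscle of rats that did not run, with all days pooled, was at log2 differences of 0.55 (Ankrd1), 0.47 (Ankrd2), 0.41 (Ankrd23) and 0.34 (Csrp3), given as a description, and the ranges of each overlapped. By day, Ankrd1 was at 11.9, 14.6, 15.4 and 21 TPM at 3 DPI in rats that did not run and at 16.7, 23, 39.8 and 48.0 TPM in running rats, and its group means were 4.49 to 9.0 TPM at later days. The 3 DPI values of running rats lay above all their later ones, while without running the lowest 3 DPI value, 11.9 TPM, lay under the highest later one, 12.9 TPM. The log2 difference of 3 DPI from later days, added after these levels were seen, was 2.03 for Ankrd1 in running rats and 1.15 in the others (1.70 and 0.75 with size factors). That of Ankrd2 was 0.92 and 0.85 (0.55 and 0.42 with size factors) and that of Csrp3 0.55 and 0.36 (0.16 and -0.093). The median of all genes was at 0.26 in running rats and 0.35 in the others. Over all contralateral muscles of rats that did not run, the summed leukocyte markers were 24.2 to 47.5 TPM at 3 DPI and 14.8 to 27.1 TPM later, and the summed fibroblast markers 627 to 1460 TPM at 3 DPI and 289 to 752 TPM later. In running rats the leukocyte sum was 27.9 to 42.1 TPM at 3 DPI and 17.1 to 50.5 TPM later, and the fibroblast sum 685 to 1608 TPM at 3 DPI and 440 to 2439 TPM later. Both sums overlapped between early and late muscles in either set. The summed myofibre markers of running rats were 74517 to 82422 TPM at 3 DPI, below all later values of 83865 to 112321 TPM, and in the others they were 86852 to 102715 TPM and 89275 to 119537 TPM. The part of these markers in the Ankrd1 level was not tested.

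Whether members varied together between muscles of 1 group was tested in the 8 grafted injured muscles at 7 DPI without running. None of the 6 pairs passed. The largest Pearson r was that of Ankrd23 with Csrp3 (r = -0.64, exact permutation p = 0.1017, adjusted p = 0.2715 over 12 relations, Spearman's rho = -0.67, exact permutation p = 0.08309, adjusted p = 0.1662), and r was -0.19 without the 2 muscles farthest from the median of Ankrd23. The largest rho was that of Ankrd2 with Csrp3 (0.71, exact permutation p = 0.05759, adjusted p = 0.1382). The other 6 relations were in the 8 unrepaired muscles and are given without a test. There the largest were Ankrd1 with Ankrd23 (r = 0.87) and Ankrd2 with Csrp3 (r = 0.85), and without the 2 muscles farthest from the median of the first gene r was 0.38 and 0.52. With all libraries kept r was 0.94 and 0.89, and 0.92 and 0.82 without the 2 farthest muscles. That setting averages sparse libraries into the values of some of these muscles. Those libraries held 79.6% to 82.2% of their TPM in ribosomal RNA symbols and 18.5 to 35.0 TPM of Ankrd1. Averaging them in lowers every member together in those muscles, which can by itself raise r. These larger values therefore cannot show whether the members varied together. In grafted muscle Ankrd1 with Ankrd23 and Ankrd2 with Csrp3 had r = 0.12 and 0.53.

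Over the 31 group means of log2(TPM + 1), which set injured against uninjured groups and so give a description only, Ankrd1 and Csrp3 followed each other most closely (r = 0.965). Ankrd23 ran opposite to Ankrd1 (r = -0.821) and Csrp3 (r = -0.839). Ankrd2 was less close to any of them (r = 0.588 with Ankrd1, 0.684 with Csrp3 and -0.680 with Ankrd23). The 5 genes most like Ankrd1 were Pak1 (r = 0.991), a kinase acting on the cytoskeleton, Dclk1, a microtubule-associated kinase, Otulin, a deubiquitinase, Cdkn1a, the p21 cell cycle inhibitor, and Sln, sarcolipin, a regulator of the SERCA calcium pump (r = 0.982). For Csrp3 they were Apoe (r = 0.979), a lipid carrier, Arhgef2, Col8a1, Impdh1 and Fhl2 (r = 0.977), another LIM protein of the sarcomere. Ankrd23 was most like Crb3 (r = 0.955), Opa3, Dnaja3, a mitochondrial chaperone, Metap1d and Pank4. Ankrd2 was most like Slc48a1 (r = 0.935), a haem transporter, Gen1, Nfe2, Stt3b and Rrm1 (r = 0.909), a ribonucleotide reductase subunit.

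Related genes were described by lists in grafted injured against contralateral muscle at 7 DPI, where the median of all genes was 0.85 and 42.9% of all genes were called higher and 3.35% lower. Of the titin and Z-disc partners, 22 of 26 had values and 21 were tested: 1 was higher, Trim55 (1.12), and 6 were lower, among them the fast-fibre Z-disc genes Actn3 (-2.62) and Myoz1 (-2.03) and the scaffold Ldb3 (-1.73). The list median was -0.64. At 3 DPI 12 of the 21 were lower (6.8% of all genes). Of 15 other LIM-domain genes tested, 8 were higher (42.9% of all genes) and none lower (median 1.48), led by Csrp2 (4.99), the smooth muscle relative of Csrp3, Fhl2 (3.93) and Crip1 (3.35). Csrp2 was at a mean of 211 TPM in injured and 5.61 TPM in contralateral muscle.

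Of 18 genes of fibre stress and filament maintenance, 7 were higher and 1 lower (median 0.59), beside 42.9% and 3.35% of all genes. The highest were Mustn1 (3.85), Rrad (3.42) and the small heat shock gene Hspb7 (2.18), and Stac3, a part of excitation-contraction coupling, was lower (-1.01). Of 21 genes of the YAP and TEAD pathway, 14 were higher (42.9% of all genes) and none lower (median 1.45), led by Axl (3.21), Fjx1 (2.84) and Ctgf (2.61), while Tead1 was at -0.31. At 3, 14 and 28 DPI 11, 8 and 8 of the 21 were higher, beside 37.2%, 25.6% and 18.8% of all genes. Of the 25 other Ankrd genes tested, 9 were higher and 1 lower (median 0.87; 42.9% and 3.35% of all genes), and the largest values were 2.02 (Ankrd13a) and -2.45 (Ankrd9), so that the log2 difference of Ankrd1 (7.38) exceeded each of theirs.

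Fibre type and fibre state genes were counted in the same comparison, again beside 42.9% of all genes called higher and 3.35% lower at 7 DPI. All 8 denervation genes were higher on each of the 4 days (37.2%, 42.9%, 25.6% and 18.8% of all genes from 3 to 28 DPI; median 4.80 at 7 DPI), with the fetal acetylcholine receptor subunit Chrng at 6.94 and Chrnd at 5.79. Of 10 regenerating fibre genes, 9 were higher (median 4.87), with Tnnt2 at 6.75, the myomaker gene Tmem8c at 6.57 and embryonic myosin Myh3 at 6.09, while Myod1 was at 0.73. Of 11 fast fibre genes, 9 were lower (median -1.33), with Myh4 at -2.43 and Pvalb at -2.05. The 9 slow fibre genes were split, with 4 higher (Casq2 3.44, Tnni1 2.0 and Atp2a2 1.05 among them) and 3 lower, Myh7 (-2.06), Myl3 (-1.74) and Myl2 (-1.53). These lists are described beside the members and no test compared them with other genes.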

How the data were processed

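RNA-seq libraries of rat TA muscle were analysed from the deposited expression table, in which the authors give one TPM value per gene symbol and library. Per the study's methods, reads were pseudo-aligned with kallisto at default settings to the annotated rat genome (build 6.0), and DESeq2 was run on gene counts not used here. The table had 16182 entries, of which 16181 were used. TPM fixes each library's total, so a rise in one gene lowers all others and depth is lost.

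The 4 genes and the gene lists were chosen with earlier results of these data known. Libraries with fewer than 7000 symbols above 1 TPM were left out (13), 9 whose title and labels disagreed were not grouped, and libraries of one muscle were averaged (2 muscles). Groups came from the labels. log2(TPM + 1) of the 11328 genes with a mean above 1 TPM in at least 1 group was fitted with limma 3.58.1 (R 4.3.3, trend) on 31 groups and 114 muscles (83 residual degrees of freedom), with Benjamini-Hochberg adjustment over all of them; a call needed adjusted p below 0.05 and a log2 difference above 1 in size. Fold changes on this scale understate those of low genes. In simulated data 200 of 200 genes changed by 2 on the log2 scale were recovered for grafted against contralateral muscle at 7 DPI (11328 genes), and no unchanged gene was called. In the data 42.9% of genes were called higher there, far more than were changed in the simulation. It covers neither differences near 1 nor contralateral groups of 2 muscles. Other tests used scipy 1.17.1.

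Named genes were the 4 members, the 5 genes with the highest Pearson r to each over group means, and the 3 highest and 3 lowest of each list in grafted rats at 7 DPI, of which some are named. Alternatives were a pseudocount of 0.1 TPM, no filter, size factors (0.38 to 1.55), all libraries kept, rat as a block, rat number range as a covariate, the compared groups alone, and leaving out each of 71 muscles. Both legs of a rat share the animal: deviations from group means correlated at 0.0722 over 36 pairs of the same rat and at -0.0087 between rats.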

Additional observations from a re-analysis of the deposited data

Results flagged for a closer look

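A single muscle lay far from the rest of its group in 4 of 64 combinations of member and group with 4 to 8 muscles (chance flags about 1 in 20). At 28 DPI without running, one unrepaired muscle had 1062 TPM of Ankrd1 and one grafted muscle 1163 TPM, where the other muscles of these groups had 353 to 417 and 347 to 453 TPM. Another unrepaired muscle at 28 DPI had 3.84 TPM of Ankrd2 beside 27.8 to 29.8 TPM. One grafted muscle at 7 DPI had 747 TPM of Ankrd23, the lowest of 8.

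The F-test of equal injury differences over days in grafted rats had limma adjusted p = 0.043 for Ankrd2 and 0.04941 for Csrp3, where 61.9% of all genes passed. Neither passed with a pseudocount of 0.1 TPM, no filter or all libraries kept. Ankrd2 was highest over contralateral muscle at 3 DPI, and the difference of Csrp3 was smallest at 28 DPI.

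Among the 9 libraries whose labels conflict, 8 came from 4 running rats at 28 DPI, and their titles name one leg while their labels give the injury to the other. In the 4 titled as the uninjured leg and labelled VML, Ankrd1 was at 239, 652, 445 and 372 TPM, above the highest control value of 6.64 TPM. In the 4 titled as the injured leg and labelled NoVML it was at 4.73 to 8.01 TPM. They entered no comparison.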

How the results depend on the processing

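Rat as a block changed no member's call, and the compared groups fitted alone lost that of Ankrd2 at 14 DPI in unrepaired running rats. With size factors and with all libraries kept, 0 members rather than 1 were called for 14 against 7 DPI. The count of members whose injury difference depended on the day fell from 2 to 0 with a pseudocount of 0.1, with no filter and with all libraries kept, and ranged from 0 to 3 when 1 muscle was left out. Leaving out 1 muscle gave 0 to 1 for 14 against 7 DPI.

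Of the differences that changed sign, those called were all of Ankrd23 over the myofibre markers. With size factors Ankrd2 went to -0.42 (7 DPI) and -0.55 (14 DPI) in grafted rats and from 0.15 to -0.46 in grafted running rats at 14 DPI, and Csrp3 from -0.29 to 0.095 for 14 against 7 DPI. With all libraries kept Ankrd2 went from -0.23 to 0.011 in grafted running rats at 7 DPI. With the rat number range as a covariate, 28 against 14 DPI went to 0.12 for Ankrd1 and 0.30 for Ankrd23. Day and range cannot be told apart over that interval. Without single muscles, Ankrd2 at 14 DPI ranged from -0.29 to 0.56 in grafted and from -0.43 to 0.74 in grafted running rats. Over the myofibre markers Ankrd23 was at 0.82 and 0.37 (3 and 7 DPI, grafted), 0.41 and 0.17 (3 and 14 DPI, unrepaired running), 0.47 and 0.49 (3 and 7 DPI, grafted running), -0.46 (7 against 3 DPI) and -0.66 (14 against 7 DPI), Ankrd2 at 1.27 (7 DPI, grafted running) and Ankrd1 at -0.42 (7 against 3 DPI). The cause of these changes was not tested. Contralateral groups of 2 muscles limit the tested comparisons of injured with contralateral muscle, except that of grafted rats that did not run at 7 DPI.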

Other observations

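One further library with conflicting labels, from a contralateral leg of a rat whose day differed between its labels, held 7.12 TPM of Ankrd1, 17.2 TPM of Ankrd2, 1796 TPM of Ankrd23 and 46.1 TPM of Csrp3.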
